A study of Homo sapiens with 18 samples.

Results

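The cytosolic ribosomal protein genes were followed through 3 states of brain-metastatic lung cancer cells. The members were the gene rows whose Ensembl identifier maps to an autosomal protein-coding gene named RPL or RPS, with RPLP0 to RPLP2 and RPSA, and without the RPS6K kinases and the mitochondrial ribosomal proteins. This rule found 81 genes, 50 of the large and 31 of the small subunit, among 60764 gene rows in either table. Of these, 78 had enough counts to be tested in H1650 and 79 in PC9. RPL3L and RPL10L did not reach the filter in either line.

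The study is about S100A9, a calcium-binding protein of the S100 family, in lung cancer cells that colonise the brain. H1650 and PC9 are established human lung adenocarcinoma lines with an activating EGFR mutation, and every group is a brain-metastatic (BrM) derivative of its line. In each line 3 libraries came from Tr-BrM cells labelled S100A9-inh, 3 from Tr-BrM control cells and 3 from BrM control cells. The labels do not say what Tr stands for, how S100A9 was inhibited, whether a derivative is 1 clone, or whether replicate libraries were grown as cultures of their own. A p-value here thus weighs a difference against the spread of 3 libraries that may be technical repeats.

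Ribosomal proteins coat the ribosomal RNA of the small and large subunits, and cells need nearly all of them in equal numbers per ribosome. Their messenger RNAs are among the most abundant of a growing cell and belong to the TOP class, whose transcripts begin with a C followed by a run of pyrimidines. LARP1 and mTORC1 control the translation and stability of TOP messages, while MYC and other factors act on their transcription, so that these messages often change as a group in tumour cells.

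Start sites of members that carry the results are printed here from RefSeq (GRCh38.p14), as the 30 bases before the annotated start and the 20 bases from it, 5′ to 3′ on the gene's strand. Capitals mark the unbroken run of C and T that contains the start base. The first lines belong to genes that were higher in PC9 Tr-BrM control cells than in PC9 BrM control cells, the next to genes that were lower there, and the others to RPS14 and RPS6 and to parent and L-type copies whose ratio is described further on.
RPSA (chr3:39406690-39406739, forward strand): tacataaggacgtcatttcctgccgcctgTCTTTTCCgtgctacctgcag
RPL14 (chr3:40457309-40457358, forward strand): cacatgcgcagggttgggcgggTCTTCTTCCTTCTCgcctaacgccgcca
RPLP0 (chr12:120201092-120201141, reverse strand): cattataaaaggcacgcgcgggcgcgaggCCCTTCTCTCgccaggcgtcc
RPL41 (chr12:56116603-56116652, forward strand): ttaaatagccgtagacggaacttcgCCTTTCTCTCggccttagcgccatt
RPL21 (chr13:27251528-27251577, forward strand): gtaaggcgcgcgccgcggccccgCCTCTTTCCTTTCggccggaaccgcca
RPS26 (chr12:56041888-56041937, forward strand): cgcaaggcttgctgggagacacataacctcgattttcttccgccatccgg
RPL13A (chr19:49487578-49487627, forward strand): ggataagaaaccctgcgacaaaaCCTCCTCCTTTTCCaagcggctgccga
RPS14 (chr5:150449720-150449769, reverse strand): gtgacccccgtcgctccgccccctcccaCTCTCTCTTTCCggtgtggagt
RPS6 (chr9:19380217-19380266, reverse strand): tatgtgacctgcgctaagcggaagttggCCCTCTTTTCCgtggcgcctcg
RPL22 (chr1:6199576-6199625, reverse strand): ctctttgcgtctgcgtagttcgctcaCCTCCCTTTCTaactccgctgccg
RPL22L1 (chr3:170870176-170870225, reverse strand): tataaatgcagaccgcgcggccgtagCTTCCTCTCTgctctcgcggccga
RPS27 (chr1:153990732-153990781, forward strand): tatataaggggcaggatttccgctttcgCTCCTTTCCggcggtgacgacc
RPS27L (chr15:63157458-63157507, reverse strand): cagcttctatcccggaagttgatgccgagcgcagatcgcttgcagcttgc
RPL7L1 (chr6:42879586-42879635, forward strand): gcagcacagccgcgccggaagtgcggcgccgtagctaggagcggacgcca
In this set RPS26, RPS27L and RPL7L1 had no run of at least 5 pyrimidines at the annotated start. RPL32 and RPL15, which were also higher in PC9 Tr-BrM control, are not printed. Each has 3 annotated starts, none of them with such a run. RPL26L1, also not printed, has 2 starts without such a run, and its parent RPL26 has 1 start with it. Of the 64 members matched to the RefSeq table by symbol, 48 (75.0%) had such a run, against 3258 of all 27305 symbols in the table (11.9%). Among the matched members the share was 46 of 58 (79.3%) for genes with no L-type name and 2 of 6 (33.3%) for L-type copies. These are descriptions of letters at annotated starts.

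H1650 libraries held 17.40 to 27.11 M counts, and PC9 libraries 18.17 to 21.75 M. S100A9 itself had 95.19, 88.21 and 105.1 CPM (read counts per M counts of the library, with the library total adjusted by TMM scaling) in H1650 Tr-BrM S100A9-inh, 336.2, 292.9 and 292.2 in Tr-BrM control and 216.8, 206.3 and 198.9 in BrM control. In PC9 it had 33.87, 30.43 and 35.45 CPM in Tr-BrM S100A9-inh, 738.8, 738.2 and 759.1 in Tr-BrM control and 118.7, 126.6 and 119.7 in BrM control, so the S100A9-inh libraries were lowest in both lines. None of 18 replicate pairs was identical. Replicate 1 of PC9 Tr-BrM S100A9-inh stood apart from its 2 partners (chi-square per degree of freedom 5.94 and 5.366, against 1.998 between the partners). Summed over 5 epithelial markers, PC9 libraries held 18900 to 20800 CPM in Tr-BrM S100A9-inh, 17700 to 18100 in Tr-BrM control and 22500 to 22800 in BrM control, and H1650 libraries 7500 to 7720, 7850 to 8120 and 9190 to 9230 CPM in the same groups. In Tr-BrM control against BrM control, 4 of the 5 fell and none rose in PC9, and 3 fell and 1 rose in H1650. Summed fibroblast markers, none of the 5 at 0, stood at 36.9 to 45.3 CPM in H1650 Tr-BrM S100A9-inh, 37.1 to 48.1 in Tr-BrM control and 9.05 to 10.9 in BrM control, and all 5 rose in Tr-BrM control over BrM control. In PC9 the fibroblast sum was 17.2 to 20.1, 12.6 to 15.1 and 26.7 to 27.2 CPM in those groups, with LUM at 0 in every group and DCN at 0 in both controls. The 2 fibroblast markers tested in PC9 fell in Tr-BrM control against BrM control. The 6 leukocyte and microglia markers summed to 4.29 to 6.54 CPM in H1650 Tr-BrM S100A9-inh, 8.02 to 9.58 in Tr-BrM control and 1.72 to 2.18 in BrM control (P2RY12 at 0), where 3 of 3 tested rose in Tr-BrM control over BrM control, and to at most 1.79 CPM in any PC9 library. The 4 endothelial markers summed to 23.5 to 28.2 CPM in PC9 Tr-BrM S100A9-inh, 40.3 to 41.2 in Tr-BrM control (CLDN5 at 0) and 22.9 to 26.6 in BrM control, with 3 of 3 tested higher in Tr-BrM control than in BrM control, and to at most 12 CPM in H1650, where 2 of 4 rose. The 6 astrocyte and neural markers summed to 110 to 140 CPM in H1650 Tr-BrM S100A9-inh, 124 to 144 in Tr-BrM control and 68.4 to 72.1 in BrM control, with 4 of 5 tested higher in Tr-BrM control than in BrM control (median log2 fold change 2.13). In PC9 they summed to 55.2 to 60.8, 60.5 to 70.5 and 71 to 77.5 CPM in these groups, with AQP4 at 0 in both Tr-BrM groups. Of the 2 tested there, 1 rose and 1 fell in Tr-BrM control against BrM control, and the 1 leukocyte marker tested in PC9 rose. Of all tested genes 32.2% rose and 31.8% fell in that comparison in H1650, and 29.6% and 30.3% in PC9. The part of these markers in the results was not tested, and in bulk samples fewer cells of a type and less RNA per cell cannot be told apart.

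The share of all counts taken by the 81 genes separated the 3 PC9 groups, while the H1650 groups overlapped in it, a difference between the lines that depended on the scaling. In PC9 the members held 7.21, 6.83 and 7.05% of all counts in Tr-BrM S100A9-inh, 6.2, 6.06 and 6.11% in Tr-BrM control, and 5.75, 5.76 and 5.65% in BrM control. No library of a PC9 group overlapped those of another. The PC9 means were 7.03 ± 0.192, 6.13 ± 0.0719 and 5.72 ± 0.0605% (SD, n = 3 each), which places Tr-BrM S100A9-inh 0.905 percentage points above Tr-BrM control and 1.31 above BrM control, and Tr-BrM control 0.404 above BrM control. Each of these differences had p = 0.1 in a two-sided exact permutation test, the smallest value that 3 against 3 libraries can give. In H1650 the shares were 6.22, 6.35 and 6.27% in Tr-BrM S100A9-inh, 6.64, 6.19 and 6.22% in Tr-BrM control, and 6.33, 6.34 and 6.42% in BrM control. The H1650 groups overlapped, and replicate 1 of Tr-BrM control lay above every other library of the line. Exact permutation p was 0.9 for H1650 Tr-BrM S100A9-inh against Tr-BrM control, 1.0 for Tr-BrM control against BrM control and 0.3 for Tr-BrM S100A9-inh against BrM control. As CPM summed over TMM-scaled totals, an alternative added after results were seen, the H1650 share differed by −0.373 percentage points between Tr-BrM control and BrM control and by −0.298 between Tr-BrM S100A9-inh and BrM control, each with an exact permutation p of 0.1, so the H1650 result rests on the scaling. Counts of mitochondrially encoded genes also moved with the PC9 groups, at 5.67 to 6.0% of a library in Tr-BrM S100A9-inh, 6.87 to 6.93% in Tr-BrM control and 6.68 to 6.78% in BrM control. In H1650 that share was 3.85 to 4.07% in Tr-BrM S100A9-inh and 3.94 to 4.04% in Tr-BrM control, both above the 3.31 to 3.39% in BrM control, and its part in the member changes was not tested. With counts at nuclear protein-coding genes alone as the denominator, the ribosomal protein share of the library differed by 0.899 percentage points between PC9 Tr-BrM S100A9-inh and Tr-BrM control, by 1.36 between Tr-BrM S100A9-inh and BrM control, and by 0.456 between Tr-BrM control and BrM control.

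**Figure D1:**
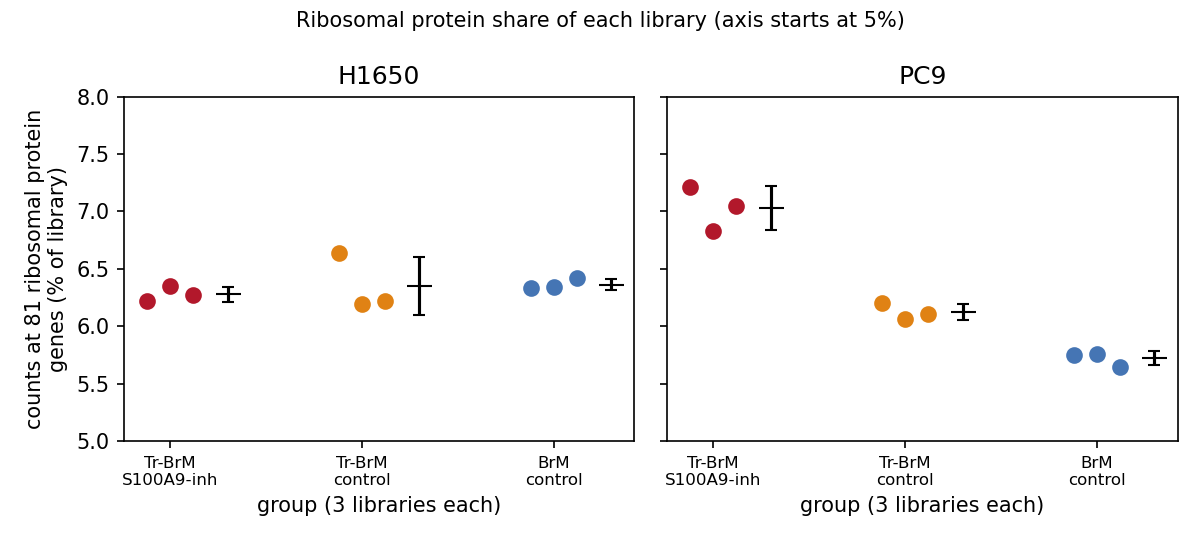
Percentage of each library's counts at the 81 ribosomal protein genes, 1 point per library, by group and line (the vertical axis starts at 5%). The 3 PC9 groups are separate, at 6.83 to 7.21% in Tr-BrM S100A9-inh, 6.06 to 6.2% in Tr-BrM control and 5.65 to 5.76% in BrM control, while the H1650 groups overlap.

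Per kilobase of transcript, RPL8 was the highest member in H1650, at a mean of 4377 CPM per kb over the 9 libraries, and RPS21 (3824), RPS16 (2554) and RPS18 (2389) were also among the highest. In PC9 RPS2 was highest, at 3647 CPM per kb, followed by RPL8 (2711), RPS18 (2299) and RPS21 (2236). These ranks depend on the transcript taken for the length, here the longest principal coding one. RPL37, at a mean of 1681 CPM in PC9, stood at 218.7 CPM per kb (rank 59) over a transcript of 7686 bases. RPS2, a small subunit protein at the mRNA entry, stood at 2138 CPM per kb in H1650, rank 7 there. At the low end, RPS10 had 1.584 CPM per kb in H1650 and 3.161 in PC9, and RPL17 had 5.168 and 5.067. Both genes overlap read-through genes, RPS10-NUDT3 and RPL17-C18orf32, which are listed at 0 in every library. Since the counting tool is not named in the sources used here, the levels of RPS10 and RPL17 are uncertain, and RPL10L (2 counts in H1650, 0 in PC9) and RPL3L (43 counts in each line), the testis and the heart and skeletal muscle copies, were near 0.

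In PC9 the ribosomal protein genes were mostly higher in Tr-BrM S100A9-inh than in BrM control cells. Of the 79 tested members 60 (75.9%) rose, 5 (6.33%) fell and 14 did not pass the test, while 22.8% of all 16169 tested genes rose and 23.6% fell (46.4% in either direction). By subunit, 24 small subunit genes rose and none fell, and 36 large subunit genes rose and 5 fell. The median log2 fold change of the members was 0.25, against 0.00 for all genes, whose middle range between the first and the last quartile ran from −0.24 to 0.26. The range of the members was −0.72 to 0.58. Without replicate 1 of Tr-BrM S100A9-inh, 59 members rose and 4 fell.

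RPS14, a platform protein of the small subunit whose loss marks the 5q− syndrome, led this comparison. RPS14 had 1691, 1383 and 1440 CPM in PC9 Tr-BrM S100A9-inh libraries, against 1005, 1021 and 988 CPM in BrM control libraries. Every Tr-BrM S100A9-inh library was above every BrM control library, and replicate 1 was the highest. The log2 fold change was 0.58 ± 0.0543 (SE, n = 3 each, adjusted p = 1.19e-07). RPS6, the small subunit protein phosphorylated by S6 kinases below mTORC1, had 1241, 1219 and 1259 CPM in Tr-BrM S100A9-inh and 891.6, 901.3 and 900.9 CPM in BrM control, again without overlap, a log2 fold change of 0.47 ± 0.0317 (adjusted p = 3.13e-14). RPS3A, which lies near the mRNA exit of the small subunit, had 324.6, 320.7 and 345.9 CPM against 227.1, 230 and 226.4 CPM in the same groups (0.54 ± 0.0375, adjusted p = 6.63e-14). RPL32 (0.49 ± 0.0343) and RPS13 (0.46 ± 0.0337) completed the 5 largest rises.

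In PC9 Tr-BrM S100A9-inh against BrM control, RPL5 and RPL11, which with 5S rRNA bind MDM2 when ribosome assembly fails, changed by 0.35 ± 0.0322 and 0.22 ± 0.0338 on the log2 scale (adjusted p = 6.47e-11 and 1.37e-06). RPL5 had 1026, 1040 and 1064 CPM in Tr-BrM S100A9-inh and 810.8, 833 and 817.5 CPM in BrM control, with no overlap. RPS19, the gene most often mutated in Diamond-Blackfan anaemia, changed by 0.31 ± 0.0328 (adjusted p = 1.62e-09). RPS27A, made as a fusion with ubiquitin, changed by 0.26 ± 0.0327 (adjusted p = 3.19e-08). RPL38, which in mouse is needed for translation of Hox messages, changed by 0.29 ± 0.0423 (adjusted p = 9.77e-07). RPL13A, which in human monocytes also acts in a complex that silences inflammatory messages, changed by 0.18, and the stalk protein RPLP0 by 0.16.

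The 5 members that fell in PC9 Tr-BrM S100A9-inh against BrM control were RPL17, RPL26, RPL22L1, RPL22 and RPL35A, all of the large subunit. RPL26, which lies at the tunnel exit, had 12.44, 13.42 and 12.68 CPM in Tr-BrM S100A9-inh and 17.51, 17.59 and 20.11 CPM in BrM control, without overlap (−0.52 ± 0.0897, adjusted p = 1.19e-05). RPL17, at 3.339, 2.582 and 3.76 CPM against 5.198, 5.928 and 4.783 CPM, changed by −0.72 ± 0.164 (adjusted p = 0.000437) from few counts. RPL22, which in T cells acts as a tumour suppressor, had 51.88, 60.31 and 59.52 CPM in Tr-BrM S100A9-inh and 64.19, 65.89 and 69.2 CPM in BrM control (−0.22, adjusted p = 0.00205). Its copy RPL22L1 changed by −0.25 (adjusted p = 0.00845), a call that was lost without replicate 1 of Tr-BrM S100A9-inh (−0.15), and RPL35A by −0.19 (adjusted p = 8.38e-05).

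Against Tr-BrM control, PC9 Tr-BrM S100A9-inh cells had 51 of 79 members higher (64.6%), 11 lower (13.9%) and 17 that did not pass. Of all tested genes 26.4% rose and 26.1% fell (52.5% in either direction). By subunit, 21 small and 30 large subunit genes rose, and 4 small and 7 large subunit genes fell. The median was 0.16 on the log2 scale, with members from −0.61 to 0.79. Both comparisons use the same Tr-BrM S100A9-inh libraries, so their counts are not independent of each other. Without replicate 1 of that group 52 members rose and 11 fell.

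RPS26, a small subunit protein at the mRNA exit whose start is printed above without a pyrimidine run, rose most. RPS26 had 297.5, 264.9 and 290.9 CPM in PC9 Tr-BrM S100A9-inh, against 170, 160.3 and 163.7 CPM in Tr-BrM control. All 3 Tr-BrM S100A9-inh libraries were above all Tr-BrM control libraries (0.79 ± 0.0411, adjusted p = 2.52e-17). RPL13A had 2333, 2190 and 2239 CPM in Tr-BrM S100A9-inh and 1411, 1403 and 1421 CPM in Tr-BrM control (0.68 ± 0.0323, adjusted p = 2.64e-18). RPL13A contains 4 small nucleolar RNA genes in its introns, and among the members 26 hold at least 1 such gene. RPL41, which encodes one of the shortest human proteins, had 501, 459 and 453.9 CPM against 325.9, 319.3 and 303.1 CPM in the same groups (0.58 ± 0.0386, adjusted p = 1.75e-14). RPL21 had 518.5, 530.2 and 550.3 CPM in Tr-BrM S100A9-inh and 350.4, 370.6 and 366.2 CPM in Tr-BrM control (0.56 ± 0.0353, adjusted p = 4.43e-15). The groups of RPL13A, RPL41 and RPL21 did not overlap. RPL21 has 133 named pseudogenes, so reads can be split between its copies. RPL36AL changed by 0.58 ± 0.0438, RPL37A by 0.51 ± 0.0344 and RPS23, a protein of the decoding centre, by 0.50.

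The stalk recruits the elongation factors to the large subunit and consists of RPLP0 with copies of RPLP1 and RPLP2. RPLP0 had 3257, 2870 and 3003 CPM in PC9 Tr-BrM S100A9-inh and 2187, 2029 and 2103 CPM in Tr-BrM control (0.53 ± 0.0374, adjusted p = 6.1e-14), and RPLP2 changed by 0.36 ± 0.0503 (adjusted p = 3.86e-06). RPLP1 changed by 0.09 ± 0.0407 and did not pass (adjusted p = 0.067), although it passed without replicate 1 of Tr-BrM control (0.11) or replicate 2 of Tr-BrM S100A9-inh (0.13). The 3 stalk genes thus moved by unequal amounts in the same libraries.

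Lower in PC9 Tr-BrM S100A9-inh than in Tr-BrM control were, among others, RPL26 (−0.52 ± 0.0902), RPL14 (−0.46 ± 0.033), RPL32 (−0.40 ± 0.034), RPSA (−0.32 ± 0.0332), RPS27L (−0.32 ± 0.1) and RPL15 (−0.27). RPL32 had 831.9, 793.3 and 828.4 CPM in Tr-BrM S100A9-inh, against 1092, 1056 and 1096 CPM in Tr-BrM control. RPSA, a small subunit protein also known as the laminin receptor, had 1519, 1402 and 1456 CPM against 1811, 1816 and 1822 CPM in these groups. Neither gene overlapped between groups. The call of RPS27L was lost without replicate 2 of Tr-BrM control (−0.23). RPS10 had the lowest fold change, −0.61 ± 0.213 (adjusted p = 0.0161), at 2.371, 1.614 and 2.471 CPM in Tr-BrM S100A9-inh and 3.802, 3.503 and 2.506 CPM in Tr-BrM control. It lies under the 5 CPM set for naming and was singled out after its values were seen.

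Between the controls of PC9, Tr-BrM over BrM, 39 of 79 members rose (49.4%), 16 fell (20.3%) and 24 did not pass, while 29.6% of all tested genes rose and 30.3% fell (59.9% in either direction). The members' median was 0.09, with a range of −0.70 to 0.89. The largest rises among members at 5 CPM or more were at RPL32, RPL14, RPL15, RPSA and RPS3A, 4 of them on chromosome 3. RPS10, under that level, changed by 0.72 ± 0.214 (adjusted p = 0.00432). RPL32 (chr3:12834485-12841588) had 1092, 1056 and 1096 CPM in Tr-BrM control and 590.9, 596.2 and 564 CPM in BrM control (0.89 ± 0.0343, adjusted p = 3.03e-21). RPL14 (chr3:40457292-40468587) had 890.3, 928.3 and 923.1 CPM against 541.3, 539.1 and 549.5 CPM in these groups (0.75 ± 0.0332, adjusted p = 1.35e-19). RPL15 had 1127, 1102 and 1105 CPM in Tr-BrM control and 678.1, 670.1 and 683.7 CPM in BrM control (0.71 ± 0.0323, adjusted p = 2.59e-19). For all 3 genes the groups were far apart. RPSA changed by 0.65 ± 0.0334 and RPS3A by 0.54 ± 0.0376.

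The largest falls in PC9 Tr-BrM control against BrM control were at RPS26 (−0.70 ± 0.0411, adjusted p = 3.38e-16), RPL21 (−0.51 ± 0.0353), RPS23 (−0.51 ± 0.054), RPL13A (−0.49 ± 0.0323) and RPL41 (−0.41 ± 0.0386). RPS26 had 170, 160.3 and 163.7 CPM in Tr-BrM control and 268.2, 267.4 and 265 CPM in BrM control. RPL13A had 1411, 1403 and 1421 CPM in Tr-BrM control and 1991, 2015 and 1960 CPM in BrM control, and RPLP0 2187, 2029 and 2103 against 2711, 2745 and 2703 CPM. None of these genes overlapped between groups. The same Tr-BrM control libraries are the baseline of the comparison with Tr-BrM S100A9-inh, so the falls here and the rises there share their samples. In Tr-BrM S100A9-inh against BrM control, RPS26 changed by 0.09, RPL21 by 0.05 and RPS23 by 0.00, and none of these passed the test. RPS26 passed without replicate 2 of Tr-BrM S100A9-inh (0.14) and RPL21 without replicate 1 of that group (0.07).

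**Figure D2:**
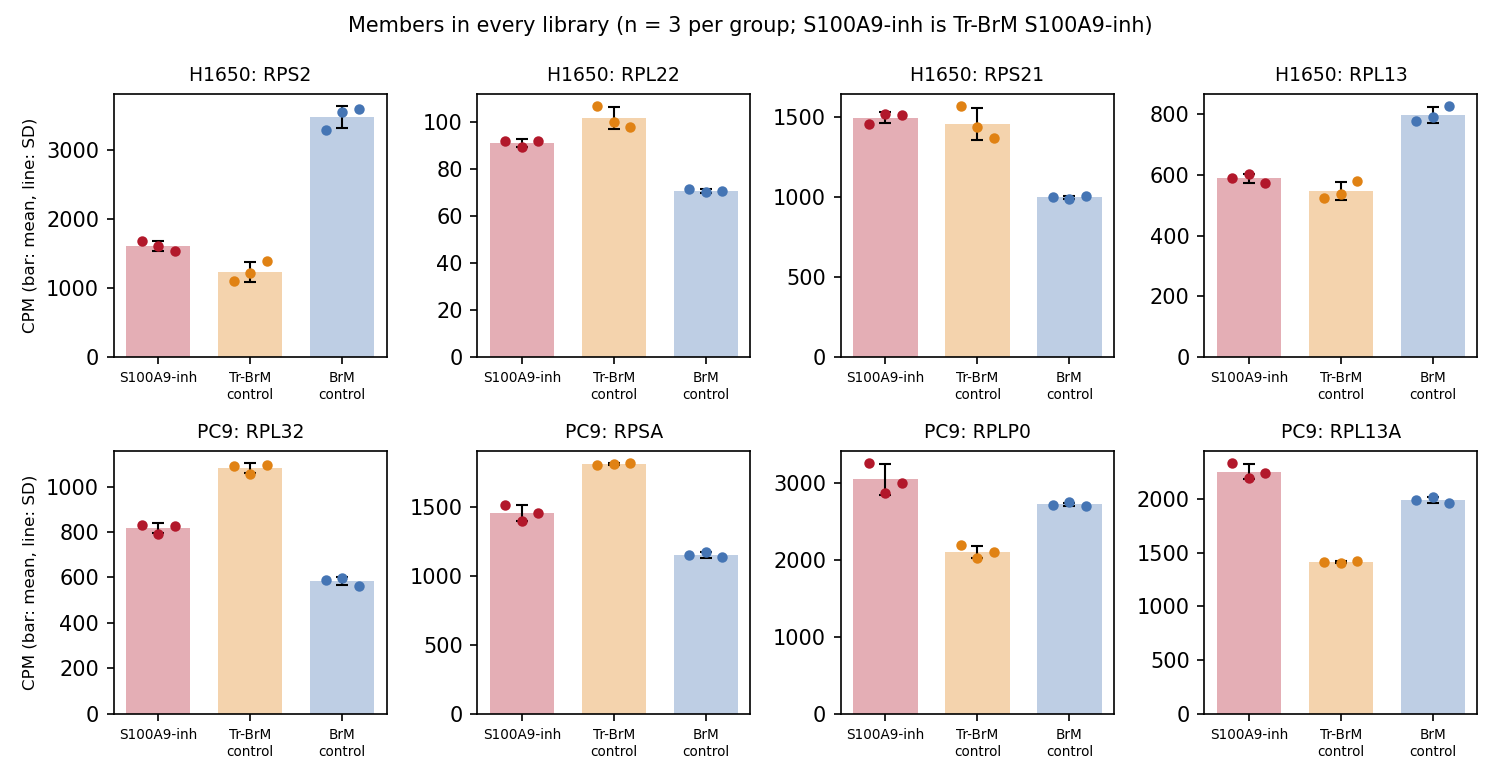
CPM of 4 members per line in each library (points), with the group mean (bar, from 0) and SD (line). In PC9 RPL32 and RPSA are highest in Tr-BrM control and RPL13A and RPLP0 are lowest there; in H1650 RPS2 is highest in BrM control (3297 to 3596 CPM).

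In H1650 Tr-BrM control against BrM control, 13 of 78 members rose (16.7%), 36 fell (46.2%) and 29 did not pass, a balance that became 24 higher and 20 lower when libraries were scaled by their totals alone. Under the TMM scaling 32.2% of all 17937 tested genes rose and 31.8% fell (64% in either direction). The members' median log2 fold change was −0.08, against quartiles of −0.34 and 0.41 for all genes. Without replicate 1 of Tr-BrM control, 11 rose and 44 fell.

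RPS2 fell most in this comparison. RPS2 (chr16:1962052-1964860, reverse strand) had 1094, 1212 and 1388 CPM in H1650 Tr-BrM control and 3297, 3547 and 3596 CPM in BrM control. Every Tr-BrM control library was far below every BrM control library. The change was −1.50 ± 0.0923 (SE, n = 3 each, adjusted p = 6.84e-06). RPL26L1, a copy of RPL26, had 45.35, 42.95 and 42.22 CPM in Tr-BrM control and 77.55, 74.55 and 73.17 CPM in BrM control (−0.79 ± 0.0467, adjusted p = 1.12e-19). RPL13 had 522.9, 537.4 and 581.9 CPM against 776.9, 791 and 827.9 CPM in these groups (−0.54 ± 0.0335, adjusted p = 7.7e-18). RPS15A (−0.50 ± 0.0474) and RPS14 (−0.40 ± 0.0331) followed, and none of the 5 genes overlapped between the groups.

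The largest rises in H1650 Tr-BrM control were at RPS21, RPL22 and RPL3. RPS21 (chr20:62387116-62388520) had 1567, 1435 and 1369 CPM in Tr-BrM control and 998.2, 985.8 and 1004 CPM in BrM control (0.55 ± 0.0344, adjusted p = 5.97e-16). RPL22 had 107, 100.2 and 98.19 CPM against 71.72, 70.13 and 70.86 CPM (0.52 ± 0.0404, adjusted p = 1.48e-15). RPL3, which reaches into the peptidyl transferase centre, had 1620, 1506 and 1541 CPM against 1155, 1149 and 1177 CPM (0.42 ± 0.0325, adjusted p = 6.71e-15). All Tr-BrM control libraries lay above all BrM control libraries for these genes. RPL21 (0.23) and RPS18 (0.18) rose by less. Of the other members named for their roles, RPL11 (−0.16), RPS19 (−0.12), RPS27A (−0.21), RPSA (−0.22), RPLP0 (−0.12), RPLP1 (−0.22) and RPLP2 (−0.09) fell, while RPL5 (−0.02, adjusted p = 0.524), RPS6 (0.03, adjusted p = 0.39), RPL13A (0.05, adjusted p = 0.146) and RPL38 (−0.07, adjusted p = 0.0513) did not pass. The call of RPLP2 was lost without replicate 3 of Tr-BrM control (−0.08), and RPL38 passed without replicate 1 of Tr-BrM control (−0.10) or replicate 2 of BrM control (−0.09).

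In H1650 Tr-BrM S100A9-inh against Tr-BrM control, log2 fold changes of the members ran from −0.40 to 0.38. Of the 78 members 17 rose (21.8%), 7 fell (8.97%) and 54 did not pass, while 15.5% of all tested genes rose and 14% fell (29.5% in either direction). The median was 0.05. The count of higher members rested on single Tr-BrM control libraries, at 39 without replicate 1 and 10 without replicate 2, with 6 lower in the first case. RPL23A, at the tunnel exit, had 121.6, 102.9 and 119.1 CPM in Tr-BrM S100A9-inh and 92.57, 88.89 and 94.88 CPM in Tr-BrM control (0.32 ± 0.0462, adjusted p = 2.79e-06). RPS26 had 312.6, 296.2 and 313.5 CPM against 275, 264.8 and 259.3 CPM (0.21 ± 0.0316, adjusted p = 8.57e-07). RPL39L, a copy of RPL39 that is enriched in testis, had 16.56, 18.73 and 16.64 CPM in Tr-BrM S100A9-inh and 24.23, 22.06 and 22.15 CPM in Tr-BrM control (−0.40 ± 0.0696, adjusted p = 1.16e-05). The groups did not overlap for these 3 genes. RPS2 had 1677, 1614 and 1530 CPM against 1094, 1212 and 1388 CPM (0.38 ± 0.0908, adjusted p = 0.0209), a call that was lost without replicate 2 of Tr-BrM control (0.37) and without replicate 1 or 2 of Tr-BrM S100A9-inh (0.35 and 0.38). RPL22L1 (0.32), RPS27A (0.20) and RPLP1 (0.19) also rose, and RPS9 (−0.20), RPL3 (−0.16), RPL22 (−0.16) and RPL13A (−0.14) fell.

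Set against H1650 BrM control, Tr-BrM S100A9-inh had 20 of 78 members higher (25.6%), 28 lower (35.9%) and 30 that did not pass, with 32.3% of all tested genes higher and 31.2% lower (63.4% in either direction), and a median of −0.01. RPS2 (−1.11 ± 0.0912, adjusted p = 3.64e-05), RPL39L (−0.64 ± 0.0689), RPL26L1 (−0.60 ± 0.0452), RPS15A (−0.50) and RPL13 (−0.44 ± 0.0334) fell most. RPS21 (0.58 ± 0.0344), RPL17 (0.41 ± 0.145), RPL22 (0.36), RPL3 (0.26) and RPS18 (0.24) rose most. The call of RPL17 was lost without replicate 2 of BrM control (0.25) and in DESeq2 (0.40). RPS2 thus stood at 1677, 1614 and 1530 CPM in Tr-BrM S100A9-inh and at 3297, 3547 and 3596 CPM in BrM control, still far apart.

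**Figure D3:**
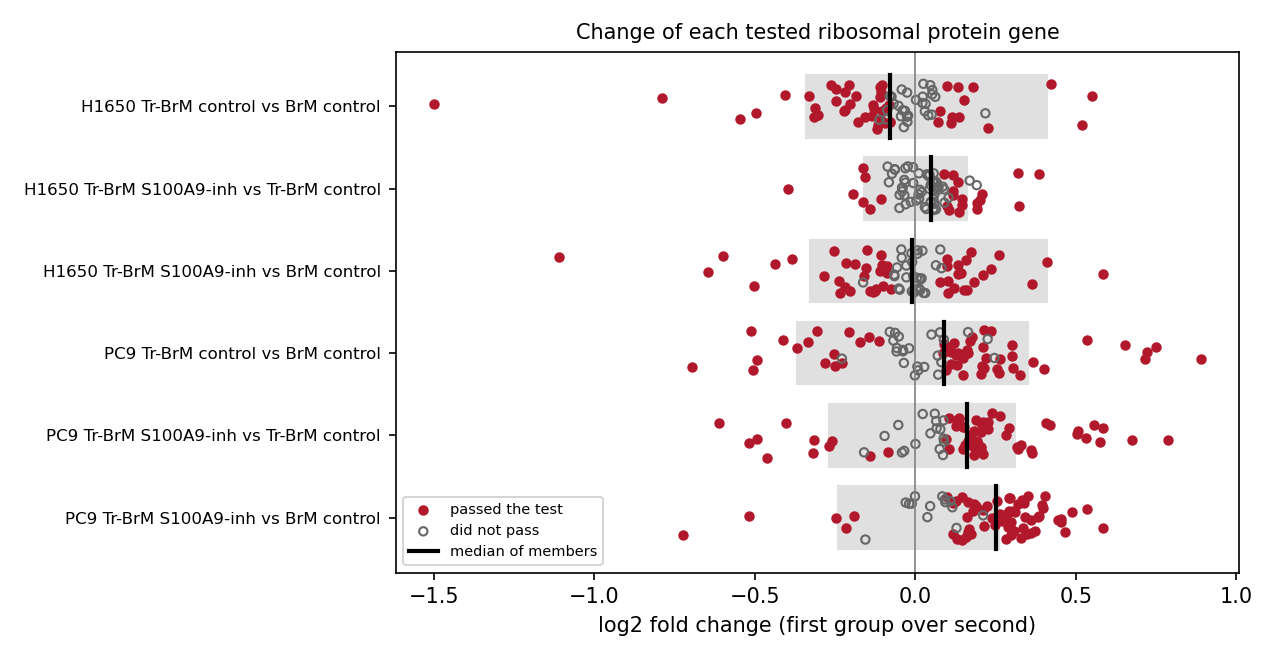
Log2 fold change of every tested member in the 6 comparisons (filled points passed the test, open points did not), with the members' median (black bar) and the range between the quartiles of all tested genes (grey). Members lie mostly right of 0 in PC9 Tr-BrM S100A9-inh against BrM control (median 0.25), and left of 0 in H1650 Tr-BrM control against BrM control (median −0.08), where scaling by library totals gave 24 higher and 20 lower.

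The change of many members differed between the lines, as tested in a joint model of 18 libraries over 19076 genes. For Tr-BrM control against BrM control, the change of 43 of 79 members (54.4%) was higher in PC9 than in H1650 and that of 16 (20.3%) was lower, with a median difference of 0.18. Of all genes in that model 27.8% were higher and 26.9% lower in PC9 (54.7% in either direction). RPL32 differed by 0.99 ± 0.0498 (adjusted p = 4.56e-25), RPSA by 0.87 ± 0.0485 (adjusted p = 5.19e-23), RPL14 by 0.83 ± 0.0458 (adjusted p = 3.03e-23) and RPL15 by 0.64 ± 0.0481 (adjusted p = 1.89e-17). RPL21 differed the other way, by −0.74 ± 0.0524 (adjusted p = 1.5e-18).

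For Tr-BrM S100A9-inh against Tr-BrM control, the change was higher in PC9 for 40 members and lower for 11, where 20.7% of all genes were higher and 19.6% lower (40.4% in either direction). RPL13A differed by 0.82 ± 0.0466 (adjusted p = 6.92e-22), RPL21 by 0.63 ± 0.0522 (adjusted p = 1.83e-15), RPS26 by 0.58 ± 0.0532 (adjusted p = 6.64e-14), RPL36AL by 0.53 ± 0.0561 (adjusted p = 1e-11) and RPL37A by 0.50 ± 0.0493 (adjusted p = 9.63e-13). RPL13A changed by −0.14 in H1650 and by 0.68 in PC9. RPS26 rose in both lines, by 0.21 and 0.79.

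Members with large changes lay, with exceptions, among genes that changed in the same direction. For each member, the other tested genes of at least 4 CPM within 5 Mb on either side were taken as neighbours. Around RPS2, 117 of 121 neighbours had a fold change below 0 in H1650 Tr-BrM control against BrM control, with a median of −0.99 on the log2 scale, against −1.50 for RPS2. NDUFB10, 3 kb away and a subunit of respiratory complex I, changed by −1.38, and MRPS34, a mitochondrial ribosomal protein gene 190 kb away, had 49.77, 51.07 and 61.75 CPM in Tr-BrM control and 136.6, 142 and 142.6 CPM in BrM control. The 3 members on chromosome 16 (RPS2, RPS15A and RPL13) all fell, as did 80.2% of the 519 other tested genes there, while 8.48% of those rose. The neighbours' median was −0.48 at RPL13, −0.44 at RPS15A, −0.43 at RPL26L1 and 0.35 at RPS21. By contrast RPL22 and RPL3, which rose by 0.52 and 0.42, had neighbours with medians of −0.02 and −0.05.

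In PC9 such regions lay on chromosomes 3, 12 and 13. Around RPL32, 61 of 64 neighbours were above 0 in Tr-BrM control against BrM control (median 0.67), as were 39 of 47 around RPL14 (0.52), 13 of 14 around RPL15 (0.83) and 33 of 37 around RPSA (0.57). The 4 members on chromosome 12 (RPS26, RPL41, RPL6 and RPLP0) all fell, with a median of −0.39, and the 576 other tested genes there had a median of −0.39, with 66.1% lower and 14.1% higher. RPL21 on chromosome 13 fell by 0.51 on the log2 scale among 176 other genes of which 75.0% were lower. In Tr-BrM S100A9-inh against Tr-BrM control all 4 members on chromosome 12 rose (median 0.55), as did 58.9% of the other genes there, and on chromosome 3 members were 5 lower and 1 higher of 9, with 54.0% of the 619 others lower and 15.2% higher. The 2 comparisons share the Tr-BrM control libraries. RPL13A and RPS23 were exceptions, with neighbours at 0.06 and 0.14 in Tr-BrM control against BrM control, where they changed by −0.49 and −0.51.

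Across members, the fold change and the neighbours' median correlated with Pearson's r 0.71 and Spearman's rho 0.42 in H1650 Tr-BrM control against BrM control (n = 78; 0.56 and 0.40 without RPS2), and with 0.69 and 0.41 in PC9 (n = 79). Over all tested autosomal genes at 4 CPM or more the values were 0.25 and 0.26 in H1650 and 0.28 and 0.36 in PC9. Members had no such minimum, and 68 of 78 in H1650 and 67 of 79 in PC9 stood at 100 CPM or more. The sets were not matched for level, so a larger value of the members cannot be read as particular to them. In H1650 Tr-BrM S100A9-inh against Tr-BrM control the members' values were 0.13 and 0.08, below the 0.20 and 0.23 of all genes, and 39 of 78 members had the sign of their neighbours. The members' values were 0.70 and 0.42 in H1650 Tr-BrM S100A9-inh against BrM control, 0.60 and 0.51 in PC9 Tr-BrM S100A9-inh against Tr-BrM control, and 0.63 and 0.48 in PC9 Tr-BrM S100A9-inh against BrM control. Over all genes they were 0.27 and 0.31, 0.34 and 0.40, and 0.26 and 0.33 in the same order. These values describe genes of the same libraries, some of which share neighbours, and no p is given. Why neighbouring genes changed together was not tested. In PC9 Tr-BrM S100A9-inh against BrM control members stood above their neighbours nearly everywhere. There 72 of 79 members had a higher log2 fold change than their neighbours' median, with a median excess of 0.27. RPS14 (0.58, neighbours 0.12), RPS3A (0.54, neighbours 0.04), RPS6 (0.47, neighbours 0.04) and RPS13 (0.46, neighbours −0.01) are examples. In the same comparison 69 of 79 members had a log2 fold change above 0 (median 0.25), so the count of 72 is not independent of that rise. A like count was not made for all genes. All 12 members on chromosome 19 rose in that comparison (median 0.30), while 32.1% of the 741 other tested genes there rose and 19.3% fell. In PC9 Tr-BrM S100A9-inh against Tr-BrM control 68 members were above their neighbours (median excess 0.17). The count was 52 in PC9 Tr-BrM control against BrM control (median excess 0.09). In H1650 it was 42 of 78 in Tr-BrM S100A9-inh against BrM control, 49 in Tr-BrM S100A9-inh against Tr-BrM control and 29 in Tr-BrM control against BrM control.

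**Figure D4:**
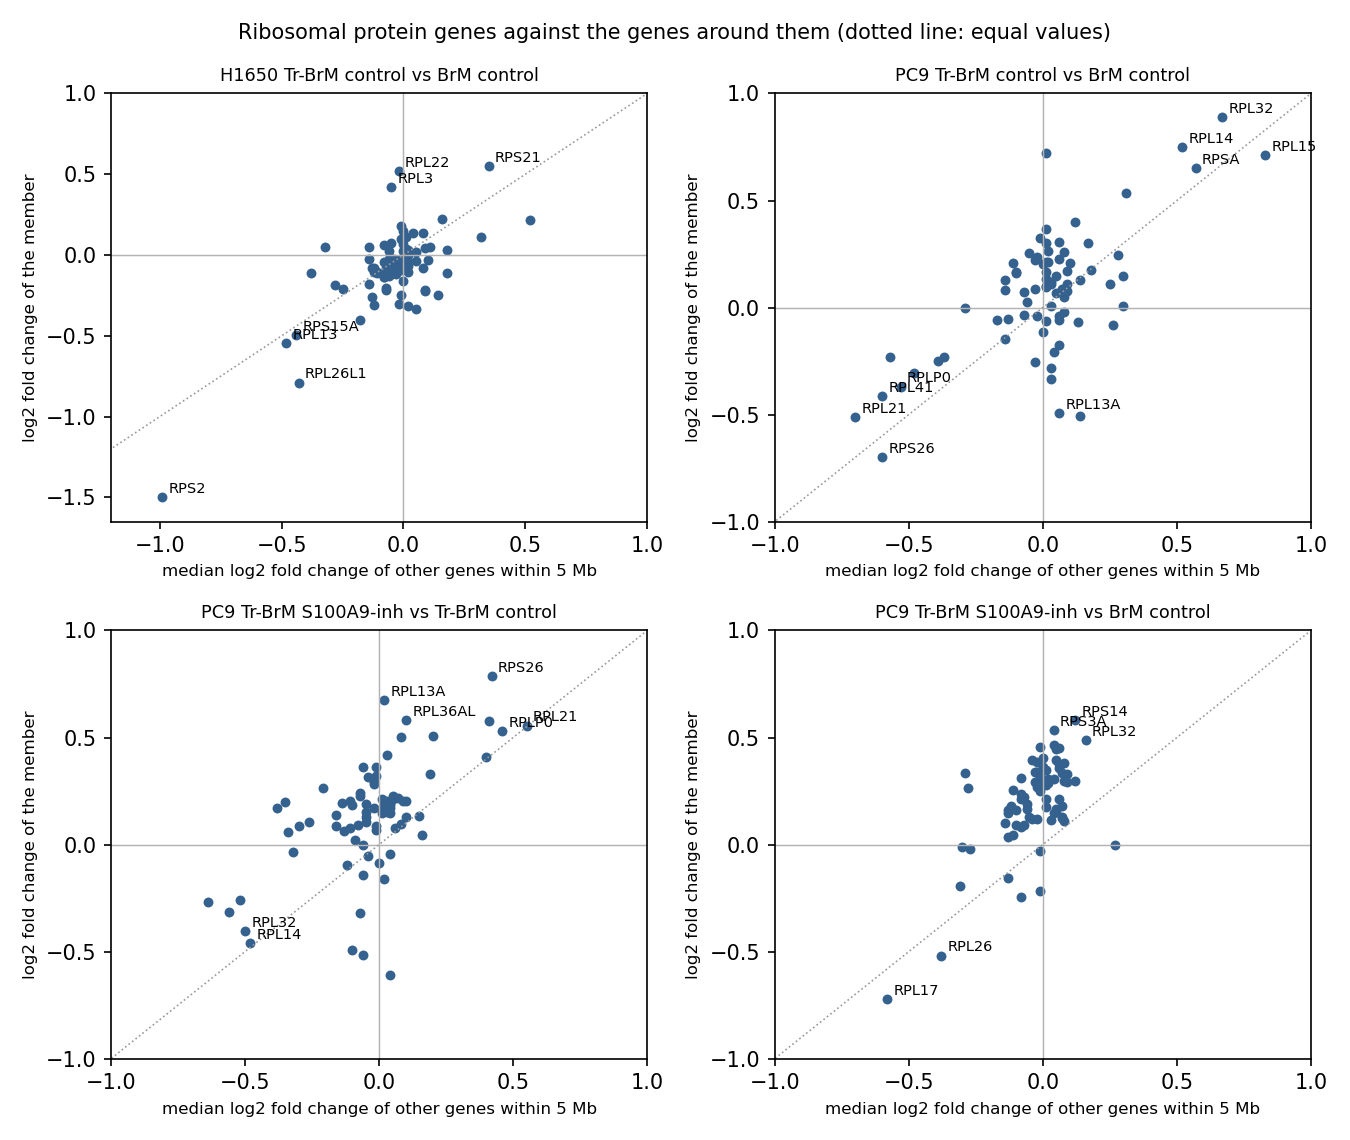
Log2 fold change of each member (vertical) against the median log2 fold change of other tested genes within 5 Mb (horizontal) in 4 comparisons, with a dotted line at equal values. In Tr-BrM control against BrM control, RPS2 in H1650 lies below the line (−1.50 against −0.99), RPL32, RPL14, RPSA, RPS26 and RPL21 in PC9 share the sign of their neighbours, and 72 of 79 PC9 members lie above it in Tr-BrM S100A9-inh against BrM control.

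Several ribosomal proteins have a second gene, and the ratio of the copies within a library does not depend on scaling. In H1650 the log2 ratio of RPL22L1 to RPL22 was −1.81, −1.97 and −1.80 in Tr-BrM S100A9-inh, −2.29, −2.32 and −2.41 in Tr-BrM control and −1.67, −1.73 and −1.72 in BrM control. Tr-BrM control was lowest and no group overlapped another, with differences of 0.48 for Tr-BrM S100A9-inh against Tr-BrM control and −0.63 for Tr-BrM control against BrM control. In mouse, Rpl22 represses Rpl22l1. In PC9 the mean ratio of these genes was −1.25, −1.27 and −1.22 in the same groups.

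The log2 ratio of RPL26L1 to RPL26 in H1650 was 0.89, 0.75 and 0.82 in Tr-BrM S100A9-inh, 0.71, 0.61 and 0.80 in Tr-BrM control and 1.41, 1.41 and 1.56 in BrM control, so both Tr-BrM groups were below BrM control. In PC9 the ratio was 2.50, 2.31 and 2.28 in Tr-BrM S100A9-inh and 1.74, 1.83 and 1.84 in Tr-BrM control, a difference of 0.56 that was 0.38 once counts of named pseudogenes were added. RPS27L, a target of p53 in human cells, stood to RPS27 at −4.98, −4.96 and −5.20 in PC9 Tr-BrM S100A9-inh and at −4.42, −4.23 and −4.56 in Tr-BrM control, a difference of −0.64. RPL39L stood to the X-linked RPL39 at −4.67, −4.42 and −4.69 in H1650 Tr-BrM S100A9-inh, −4.16, −4.12 and −4.10 in Tr-BrM control and −3.90, −3.99 and −3.93 in BrM control, lowest in Tr-BrM S100A9-inh. In PC9 that ratio was −4.73, −4.62 and −4.77 in Tr-BrM S100A9-inh, −4.97, −4.94 and −5.08 in Tr-BrM control and −4.43, −4.59 and −4.52 in BrM control, lowest in Tr-BrM control, so Tr-BrM S100A9-inh against Tr-BrM control differed by 0.29 in PC9 and by −0.47 in H1650. RPL36AL stood to the X-linked RPL36A at 4.55, 4.73 and 4.15 in PC9 Tr-BrM S100A9-inh, 3.39, 3.15 and 3.39 in Tr-BrM control and 4.43, 4.25 and 4.65 in BrM control. That ratio was lowest in Tr-BrM control, by 1.17 against Tr-BrM S100A9-inh and by 1.13 against BrM control, or by 0.68 and 0.73 with pseudogenes added. RPL36A had only 4.23 to 9.88 CPM over the PC9 libraries, and RPL26 12.44 to 20.11 CPM. Ratios to these parents rest on low counts, and whether reads of theirs went uncounted was not tested. RPL7L1 to RPL7 differed by −0.25 between PC9 Tr-BrM S100A9-inh and Tr-BrM control. Over the 42 comparisons of 7 pairs, those whose groups did not overlap had an exact permutation p of 0.1 (two-sided, adjusted 0.191), and with 3 libraries a group none could pass. RPL3L, with 10 to 17 counts per group, was too low for its ratio to RPL3 to be read.

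**Figure D5:**
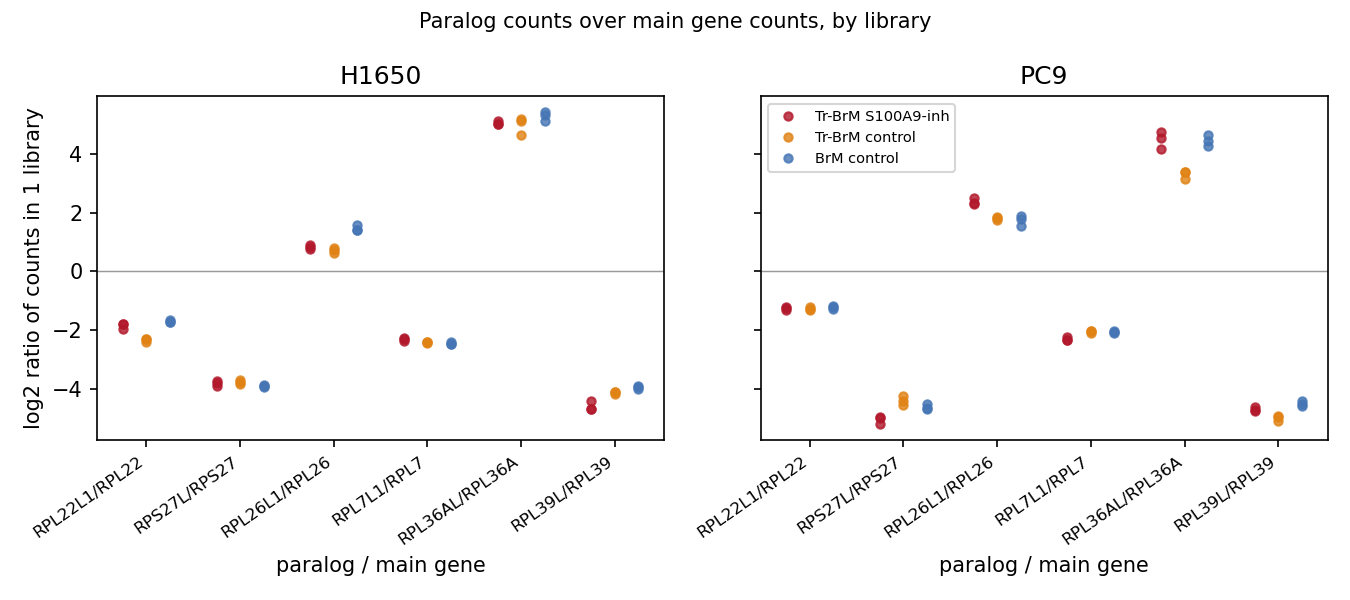
Log2 ratio of an L-type copy to its parent gene in each library, for 6 pairs and both lines. In H1650 RPL22L1/RPL22 is lowest in Tr-BrM control (−2.29 to −2.41) and RPL26L1/RPL26 is highest in BrM control (1.41 to 1.56), and in PC9 RPL36AL/RPL36A is lowest in Tr-BrM control (3.15 to 3.39). RPL36A had only 4.23 to 9.88 CPM in PC9.

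The genes around the ribosomal proteins in ribosome biology did not always move with them. In PC9 Tr-BrM S100A9-inh against Tr-BrM control, where 51 of 79 members rose, 44 of 58 ribosome assembly factors fell and 5 rose (median −0.33). In PC9 Tr-BrM control against BrM control 48 assembly factors rose and 6 fell (median 0.41), and in Tr-BrM S100A9-inh against BrM control 15 rose and 8 fell (median 0.03). Of all tested genes 26.4% rose and 26.1% fell in Tr-BrM S100A9-inh against Tr-BrM control. The shares were 29.6% and 30.3% in Tr-BrM control against BrM control, and 22.8% and 23.6% in Tr-BrM S100A9-inh against BrM control. The 15 assembly factors that rose in the last were near the share of all genes. NOP56, a core protein of box C/D small nucleolar RNPs, had 203.4, 205.5 and 206.5 CPM in PC9 Tr-BrM S100A9-inh, 493.7, 493 and 479.6 CPM in Tr-BrM control and 264.2, 272.7 and 270 CPM in BrM control. It was lowest in Tr-BrM S100A9-inh and highest in Tr-BrM control, with a change of −1.25 ± 0.0351 between these groups (adjusted p = 8.38e-25). NOLC1 changed by −0.59 and WDR43 by −0.75 in that comparison. RNA polymerase I genes, which make the ribosomal RNA precursor, had 3 higher and 12 lower of 20 in PC9 Tr-BrM S100A9-inh against Tr-BrM control, 12 and 5 in Tr-BrM control against BrM control, and 3 and 3 in Tr-BrM S100A9-inh against BrM control.

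In H1650 Tr-BrM control against BrM control, 39 of 58 assembly factors fell and 8 rose (median −0.23). Of all tested genes 32.2% rose and 31.8% fell there. DDX56, a helicase of large subunit assembly, changed by −0.75 and NHP2 of the box H/ACA particles by −0.65. In Tr-BrM S100A9-inh against Tr-BrM control 23 rose and 3 fell (median 0.09), and SBDS, which frees new large subunits for translation, changed by 0.35. In Tr-BrM S100A9-inh against BrM control 12 rose and 31 fell. All tested genes had 15.5% higher and 14% lower in Tr-BrM S100A9-inh against Tr-BrM control, and 32.3% and 31.2% against BrM control. The polymerase I list had 7 higher and 5 lower in H1650 Tr-BrM S100A9-inh against BrM control, 6 and 2 against Tr-BrM control, and 7 and 7 in Tr-BrM control against BrM control. Its counts against BrM control were near the shares of all genes.

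Of 22 tested translation factors of the TOP class, 16 rose and 1 fell in PC9 Tr-BrM S100A9-inh against BrM control (median 0.23), where 22.8% of all tested genes rose and 23.6% fell. Against Tr-BrM control 14 rose and 5 fell (median 0.22), where 26.4% of all genes rose and 26.1% fell. In Tr-BrM control against BrM control the list was split, with 11 higher and 9 lower (median 0.03). There 29.6% of all tested genes rose and 30.3% fell. EEF1A1, which brings aminoacyl-tRNA to the ribosome, had 13320, 12340 and 12470 CPM in PC9 Tr-BrM S100A9-inh, 8695, 8734 and 8815 CPM in Tr-BrM control and 9360, 9603 and 9496 CPM in BrM control, highest in Tr-BrM S100A9-inh without overlap. In H1650 the counts higher and lower were 8 and 11 in Tr-BrM S100A9-inh against BrM control, 9 and 4 in Tr-BrM S100A9-inh against Tr-BrM control, and 5 and 12 in Tr-BrM control against BrM control. All tested genes had 32.3% and 31.2%, 15.5% and 14%, and 32.2% and 31.8% in the same order. The 7 ribosomal protein genes outside the rule, among them the X-linked RPL10, RPL39 and RPS4X, had 6 higher and none lower in PC9 Tr-BrM S100A9-inh against BrM control (median 0.34), and in H1650 none higher and 5 lower in the same comparison. RPL10 changed by 0.34 and RPL39 by 0.37 in PC9 Tr-BrM S100A9-inh against BrM control.

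MYC, a regulator of ribosomal protein transcription, had 180, 165.9 and 165.9 CPM in PC9 Tr-BrM S100A9-inh, 242, 238.5 and 235.7 CPM in Tr-BrM control and 120.2, 122.2 and 121.3 CPM in BrM control. In H1650 MYC had 61.01, 63.87 and 62 CPM in Tr-BrM S100A9-inh, 49.14, 45.07 and 53.39 CPM in Tr-BrM control and 74.79, 74.77 and 72.57 CPM in BrM control. It was thus highest in Tr-BrM control in PC9 and lowest there in H1650. Of 22 genes of TOP message and mTORC1 control, 2 rose and 8 fell in PC9 Tr-BrM S100A9-inh against BrM control, and 6 and 5 against Tr-BrM control. LARP1 changed by 0.39 in the first of these. Of all tested genes 22.8% rose and 23.6% fell in the first, and 26.4% and 26.1% in the second. Genes of the p53 response to ribosome stress had 12 higher and 3 lower of 20 in H1650 Tr-BrM control against BrM control, and 3 higher and 10 lower in PC9. All tested genes had 32.2% higher and 31.8% lower in H1650, and 29.6% and 30.3% in PC9. Of the dedicated ribosomal protein chaperones 2 rose and 5 fell of 14 in PC9 Tr-BrM S100A9-inh against Tr-BrM control. Small nucleolar RNA host genes had 5 higher and 9 lower of 17 there, and ribosome quality control genes 6 and 7 of 20. The quality control counts were near the 26.4% higher and 26.1% lower of all tested genes.

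Mitochondrial ribosomal proteins, encoded by other genes and part of another ribosome, had 39 higher and 6 lower of 77 in PC9 Tr-BrM control against BrM control, 11 and 24 in Tr-BrM S100A9-inh against Tr-BrM control, and 32 and 9 in Tr-BrM S100A9-inh against BrM control. In H1650 they had 6 and 51 in Tr-BrM control against BrM control, 9 and 4 in Tr-BrM S100A9-inh against Tr-BrM control, and 5 and 46 in Tr-BrM S100A9-inh against BrM control. All tested genes of PC9 had 29.6% and 30.3%, 26.4% and 26.1%, and 22.8% and 23.6% in the same order. Those of H1650 had 32.2% and 31.8%, 15.5% and 14%, and 32.3% and 31.2%. Named pseudogenes of the cytosolic ribosomal proteins held 2.01 to 2.2% of the counts of members and pseudogenes together in H1650 and 1.78 to 2.02% in PC9. Of 172 tested in PC9, 39 rose and 4 fell in Tr-BrM S100A9-inh against BrM control (median 0.34). The 39 were near the 22.8% of all tested genes that rose, while 23.6% of all genes fell. Whether those reads came from the pseudogenes or from their parent genes was not tested.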

How the data were processed

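Poly-A selected RNA was sequenced per the labels' protocols, and the authors deposited raw, whole-number counts of reads by gene, as 1 table of 9 libraries per line. The submitters' processing notes name STAR, GRCh38, R 4.0.1 and DESeq2 1.28.1. The counting tool, the annotation release, the treatment of reads with several matches and the use of strand are not stated in the labels or file headers.

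Each line was fitted over all genes with edgeR 4.0.16 in R 4.3.3 (TMM, filterByExpr by group, robust quasi-likelihood test over 9 libraries, Benjamini-Hochberg adjustment, threshold 0.05). "Rose" and "fell" mean that a gene passed this test. The SE of a log2 fold change is its size divided by the root of its F statistic. Common biological coefficients of variation were low (H1650 0.03355, PC9 0.04327), so small changes passed. On simulated data of Tr-BrM control against BrM control, 62% of genes changed 1.25-fold and 100% of those changed 2-fold were recovered in H1650 (17735 genes), and 64% and 100% in PC9 (15898 genes). Of the simulated calls 1.71% in H1650 and 4.0% in PC9 were false. The simulation changed 50 genes at each fold and gave all genes the same spread, so these rates need not hold for the real libraries. CPM are over TMM-adjusted totals, and per kb values use the longest principal coding transcript of GENCODE release 29. Shares and copy ratios were compared with two-sided exact permutation tests in scipy 1.17.1. Ratios are log2 of counts plus 0.5. Alternatives were DESeq2 1.42.0, other scalings, filters and denominators, a fold threshold, added pseudogene counts and leaving out each library.

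Symbols, biotypes and positions came from a table of gene names and GENCODE, start sites from RefSeq (GRCh38.p14). The genes named are all L-type copies and their parents, the stalk genes, RPSA, RPS6, RPL5, RPL11, RPS19, RPS27A, RPL13A and RPL38, the 5 largest rises and falls per comparison at 5 CPM or more, the 5 smallest p of each contrast between lines, the 5 highest per kb, and up to 3 genes of each other list. Some of the genes this rule names are not reported here. The members and lists were chosen with earlier results of these data known, and the comparison with neighbouring genes was added after results were seen. Counts of all genes in each direction stand beside those of the members because most genes passed the test in some comparisons.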

Additional observations from a re-analysis of the deposited data

Results flagged for a closer look

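The change between Tr-BrM control and BrM control differed between the lines, by an interaction test in the joint edgeR model, for 43 members that were higher in PC9 and 16 that were lower. Of all genes in that model 27.8% were higher in PC9 and 26.9% lower. The 5 members with the smallest p were RPL32 (a difference of 0.99 on the log2 scale, PC9 minus H1650), RPL14 (0.83), RPSA (0.87), RPL21 (−0.74) and RPL15 (0.64). The change between Tr-BrM S100A9-inh and Tr-BrM control differed likewise for 40 members higher in PC9 and 11 lower, led by RPL13A (0.82), RPL21 (0.63), RPS26 (0.58), RPL37A (0.50) and RPL36AL (0.53). For that change 20.7% of all genes were higher in PC9 and 19.6% lower. RPL32, RPL14, RPSA, RPL15, RPL21 and RPS26 lie in PC9 regions whose other genes had a median change of the same sign, while the neighbours of RPL13A were near 0. The cause of the differences between lines was not tested.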

How the results depend on the processing

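No paired analysis was possible because the libraries of different groups carry no shared replicate numbers. Scaling by library totals alone gave 24 members higher and 20 lower in H1650 Tr-BrM control against BrM control, and 12 lower in H1650 Tr-BrM S100A9-inh against Tr-BrM control; there was no other change of a member count by over 1.5 times from scaling. Testing against a fold of at least 0.2 on the log2 scale left, higher and lower, 3 and 11 members in H1650 Tr-BrM control against BrM control, 1 and 1 in H1650 Tr-BrM S100A9-inh against Tr-BrM control, 3 and 8 in H1650 Tr-BrM S100A9-inh against BrM control, 14 and 8 in PC9 Tr-BrM control against BrM control, 16 and 7 in PC9 Tr-BrM S100A9-inh against Tr-BrM control, and 34 and 2 in PC9 Tr-BrM S100A9-inh against BrM control. Leaving out each replicate in turn gave 10 to 39 higher and 6 to 10 lower in H1650 Tr-BrM S100A9-inh against Tr-BrM control, and 11 to 13 higher and 29 to 44 lower in H1650 Tr-BrM control against BrM control. Counts of all genes under these other settings are not given here. A move of the members alone thus cannot be told from a move of all genes. As summed CPM, an alternative added after results were seen, the ribosomal protein share of the library differed by −0.373 percentage points in H1650 Tr-BrM control against BrM control, −0.298 in H1650 Tr-BrM S100A9-inh against BrM control and 1.15 in PC9 Tr-BrM S100A9-inh against BrM control. With pseudogene counts added, RPL26L1/RPL26 differed by −0.73 in H1650 Tr-BrM S100A9-inh against BrM control and 0.38 in PC9 Tr-BrM S100A9-inh against Tr-BrM control, RPL22L1/RPL22 by −0.10 in PC9 Tr-BrM control against BrM control, and RPL36AL/RPL36A by −0.73 in PC9 Tr-BrM control against BrM control and 0.68 in PC9 Tr-BrM S100A9-inh against Tr-BrM control. TMM factors in H1650 were 0.96844 to 0.97259 in BrM control and 1.0216 to 1.0328 in Tr-BrM control. The sign of the smallest called falls between these groups thus rests on the scaling. Other neighbour windows and a minimum of 100 CPM were also added after results were seen. Genes under about 5 CPM, among them RPS10 and RPL17, have wide errors at this depth.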
